A study of Mus musculus with 12 samples.

Results

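The response of peritoneal macrophages to lipopolysaccharide (LPS) was followed in female mice kept on a high fat diet (HFD). The comparison set 3 libraries from cells given LPS for 24 h against 3 libraries from cells at 0 h, which are 6 of the 12 libraries in the series. The other 6 hold the same pair of conditions from mice on a control chow, and were used here for the shared estimate of spread and for the test of whether the diets differ. The labels give the tissue, the sex, the diet and the hours of LPS. They give no strain, genotype, age, LPS dose or length of feeding, and do not say whether each library came from its own animal, so the p-values cover only how far these libraries scatter, and that scatter may be technical. No library stands for 24 h in culture without LPS, so LPS and time in culture cannot be told apart. The title of the series names the pentose phosphate pathway and inflammatory responses in hypercholesterolemia. The comparison describes transcripts of both within HFD and does not test a link between them.

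LPS is a glycolipid of the outer membrane of Gram-negative bacteria, and macrophages sense it through the receptor TLR4 with the help of CD14 and Ly96. A branch through the adaptor MyD88 activates NF-kB and AP-1 and induces cytokines, and a branch through the adaptor TRIF leads to interferon beta, which acts back on the cell through JAK kinases and STAT factors and induces the interferon-stimulated genes. Stimulated macrophages are also known to draw more on glycolysis, and the pentose phosphate pathway supplies the NADPH used by NADPH oxidase, nitric oxide synthase and the recycling of glutathione. Macrophages of hypercholesterolemic animals load cholesterol esters and take on features of foam cells.

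With 1 transcript row kept per gene, counts summed to 9937928, 9135057 and 2360244 in HFD 0 h replicates 1, 2 and 3, and 12884645, 17453333 and 20688308 in HFD 24 h replicates 1, 2 and 3. HFD 0 h replicate 3 was the shallowest of these 6. Before the TMM factors used for the CPM below, 3 counts there equal 1.27 CPM (counts scaled to library depth), against 0.145 in the deepest library. HFD 0 h replicate 3 also stood apart on the second principal component of the 6 libraries (22.86% of the variance), at -57.51, where the other libraries lay between -12.23 and 43.75. In that library 12% of counts fell on rows without a gene symbol, against 3.47% to 7.69% in the other 5. Most of these counts lay on 1 row, which took 11.8% of counts in that library and 3.17% to 7.46% in the other 5. Its label carries the same sample tag as the replicate 2 libraries of both chow groups, and other tags recur between libraries too; whether the tag bears on its identity was not tested. Results are therefore given with and without it where it mattered. The macrophage markers Cd68, Csf1r, Itgam and Mpeg1 were read in all 6 libraries, the lowest value being 747 CPM (Itgam), and the 12 macrophage markers summed to 21645 to 23496 CPM at 0 h and 17100 to 19383 CPM at 24 h, with 3 of them rising and 3 falling. HFD 24 h replicate 1 is the only HFD library whose label carries the lane tag found on the chow 24 h libraries.

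The change in HFD macrophages was broad. Of 12641 genes, 3116 (24.6%) passed at a Benjamini-Hochberg adjusted p below 0.05 in edgeR's quasi-likelihood test. Of these, 1605 (12.7%) were higher and 1511 (12%) lower at 24 h, and the words rose and fell are used below only for such genes. By the fitted fold change, 884 genes (6.99%) rose and 653 (5.17%) fell by at least 2-fold, 248 rose and 48 fell by at least 8-fold, and 69 rose and 2 fell by at least 64-fold. Of the genes that rose, 30 had no count at 0 h. With those held at a lower bound of 3 counts over the 0 h group, 238 rose by at least 8-fold and 42 by at least 64-fold. The median log2 fold change was -0.002 over all genes tested, 1.13 over those that rose and -0.90 over those that fell. Genes that rose took 10.49% to 10.88% of all counts at 0 h and 26.05% to 29.30% at 24 h, and genes that fell went from 34.51% to 35.29% down to 19.32% to 20.57%. The 3 libraries of one group did not overlap with the 3 of the other in 4481 genes tested (35.4%), among them 1550 of those that rose and 1419 of those that fell. Without HFD 0 h replicate 3, 2995 of 12824 genes passed (23.4%), and 1403 of the increases and 1276 of the decreases were shared between both fits.

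**Figure D1:**
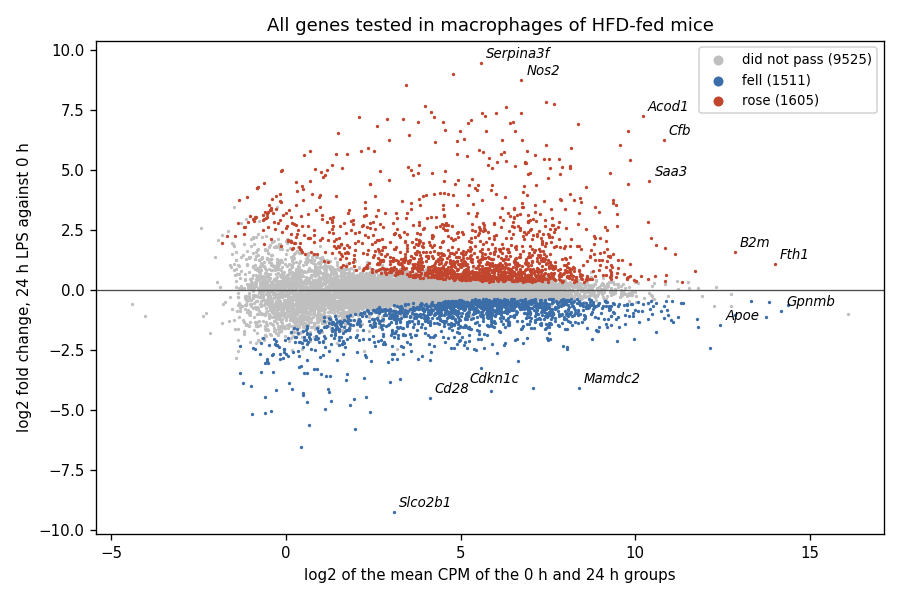
Log2 fold change of each of the 12641 genes tested (HFD 24 h LPS against HFD 0 h) against the log2 of the mean CPM of both groups, with genes that rose in red, fell in blue and did not pass in grey. The increases reach further from 0 than the decreases, and genes without a count in one group are drawn at their bound.

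The largest increases included genes that were nearly silent at 0 h. Nos2 (chr11:78920787-78960226, GRCm38.p6), the inducible nitric oxide synthase, read 0, 0.779 and 1.35 CPM at 0 h and 119, 257 and 261 CPM at 24 h. Every 24 h library lay far above every 0 h library, and the first 24 h library was the lowest of its group. The log2 fold change was 8.74 ± 0.56 (SE; adjusted p = 2.95e-07), and 9.11 ± 0.69, adjusted p = 1.1e-05 without HFD 0 h replicate 3. Acod1 (chr14:103047012-103056573), which makes itaconate from cis-aconitate, read 15.2, 12.8 and 20.2 CPM at 0 h and 2372, 1993 and 2713 CPM at 24 h. Its groups were tight and far apart, and the log2 fold change was 7.26 ± 0.22, adjusted p = 9.76e-13. Gbp5 (chr3:142496934-142522344), an interferon-induced guanylate-binding protein, read 1.25, 2.11 and 3.15 CPM at 0 h and 244, 416 and 547 CPM at 24 h, a change of 7.75 ± 0.36, adjusted p = 1.64e-10. Fpr2, a receptor for formylated peptides, read 0.520, 0.890 and 1.35 CPM at 0 h and 154, 110.1 and 208 CPM at 24 h. The groups of Fpr2 did not overlap either, with a log2 fold change of 7.65 ± 0.44, adjusted p = 3.95e-09.

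Several of the strongest increases started from no count or a handful of counts, so that only a bound or a wide interval can be given. Serpina3f, a member of the alpha-1-antichymotrypsin family of protease inhibitors, was not counted at 0 h and read 55.9, 98.7 and 130.4 CPM at 24 h. That is at least 704-fold higher. U90926 was likewise at 0 in all 3 libraries at 0 h, read 21.6, 26.0 and 14.1 CPM at 24 h and was at least 139-fold higher. For Cxcl3, a neutrophil-attracting chemokine with 2 counts at 0 h, the 24 h libraries read 85.4, 9.35 and 68.6 CPM. The ratio was 545-fold with a 95% counting interval of 151 to 4504, the second 24 h library was far below the others, and limma-voom did not call the gene (adjusted p = 0.158; 0.21 with sample quality weights). Ifit3b, with 1 count at 0 h and 14.9, 29.5 and 20.3 CPM at 24 h, had a ratio of 461 (82.6 to 18230.0), and its near-identical neighbour Ifit3 may share its reads. The other large increases by the same rule were Ms4a4c (7.85 ± 0.46), Ifit1bl1 (3 counts at 0 h, ratio 229, counting interval 78.3 to 1113; limma-voom did not call it, adjusted p = 0.0553), Gm4951 (7.44 ± 0.70), Iigp1 (7.38 ± 0.71), Ifi44 (7.37 ± 0.51), Clic5 (7.36 ± 0.44) and Gbp4 (7.27 ± 0.72). Several of these values moved by over 1.5-fold with 1 library left out. The log2 fold change of Nos2 was 7.88 without 0 h replicate 1 and 9.62 without 0 h replicate 2, that of Ms4a4c 7.21 without 0 h replicate 1 and 8.95 without 0 h replicate 2, and that of Gm4951 6.59 without 0 h replicate 1 and 8.26 without 0 h replicate 3. That of Iigp1 was 6.60 without 0 h replicate 1 and 9.21 without 0 h replicate 2, and that of Gbp4 6.47 without 0 h replicate 1 and 8.85 without 0 h replicate 3. All 0 h counts of Cxcl3 and Ifit1bl1 lay in replicate 2 and that of Ifit3b in replicate 1, so that no 0 h count remained without those libraries.

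The largest decrease was that of Slco2b1. Slco2b1 (chr7:99657804-99711340), an organic anion transporter, read 15.2, 23.7 and 12.1 CPM at 0 h and 0, 0.0560 and 0 CPM at 24 h. A single count remained at 24 h, in replicate 2, which puts 24 h 967-fold below 0 h (95% counting interval 172 to 38282). Mamdc2 read 695, 573 and 621 CPM at 0 h and 39.2, 35.9 and 36.2 CPM at 24 h, and both groups were tight. The log2 fold change of Mamdc2 was -4.09 ± 0.17, adjusted p = 3.92e-11. Cdkn1c (chr7:143458339-143461059), which encodes the cyclin-dependent kinase inhibitor p57, read 226, 276 and 253 CPM at 0 h and 13.1, 18.03 and 13.3 CPM at 24 h, a change of -4.08 ± 0.20, adjusted p = 1.38e-10. Cd28, best known as a costimulatory receptor of T cells, read 32.2, 45.6 and 22.03 CPM at 0 h and 1.27, 2.07 and 1.16 CPM at 24 h. Its groups lay far apart, with a log2 fold change of -4.50 ± 0.31, adjusted p = 8.2e-09. Gpr183, a receptor for hydroxylated cholesterol derivatives, fell by 3.71 on the log2 scale (SE 0.36). Further decreases by the same rule were Pcp4l1 (-5.07 ± 0.40), Galnt9 (-3.82 ± 0.32), Matk, a tyrosine kinase (-3.22 ± 0.18), Myo18b (-2.97 ± 0.41), Lsp1, an actin-binding protein of leukocytes (-2.93 ± 0.23), and Slc46a3 (-2.89 ± 0.23). The remaining 4 were Abca9 (-2.88 ± 0.29), Slc9a9 (-2.85 ± 0.31), Padi2 (-2.84 ± 0.36) and Bex1 (-2.75 ± 0.38).

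**Figure D2:**
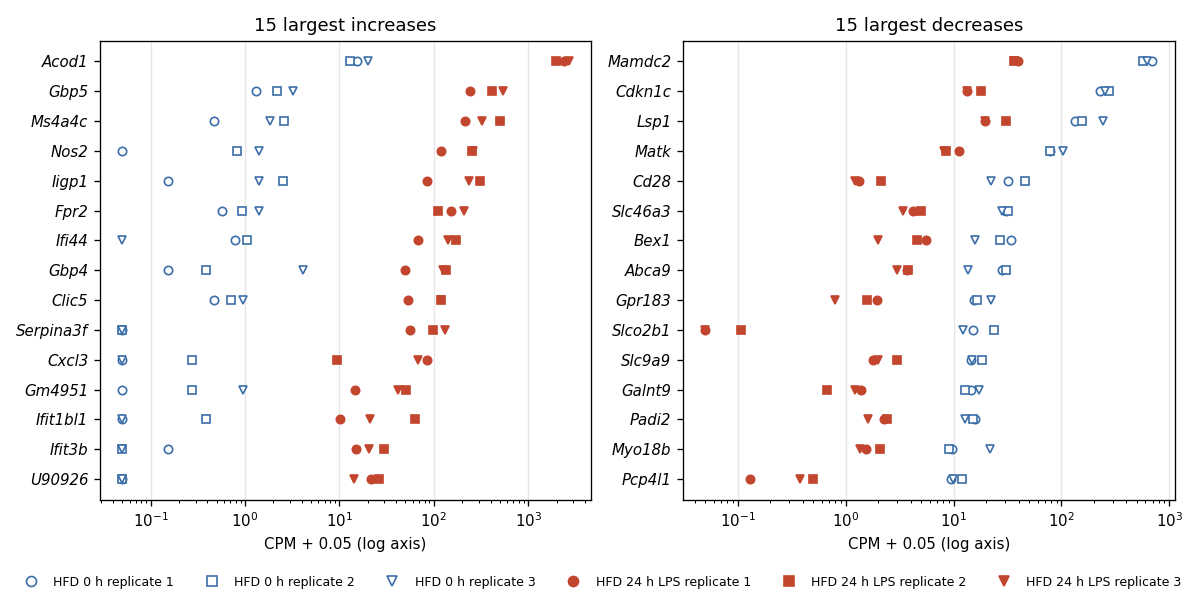
CPM + 0.05 on a log axis in each of the 6 HFD libraries for the 15 largest increases (left) and the 15 largest decreases (right), with open blue symbols for 0 h, filled red symbols for 24 h of LPS and 1 shape per replicate. The 0 h and 24 h symbols of a gene do not overlap in any row, which the choice of these genes fixed.

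Gene groups were then compared with the share of all genes tested that rose (12.7%) or fell (12%) and with the median of all genes. The lists were drawn from pathway knowledge, with earlier results of these data known, and their counts describe these libraries only. In bulk RNA, fewer cells of a type and less RNA per cell cannot be told apart.

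**Figure D3:**
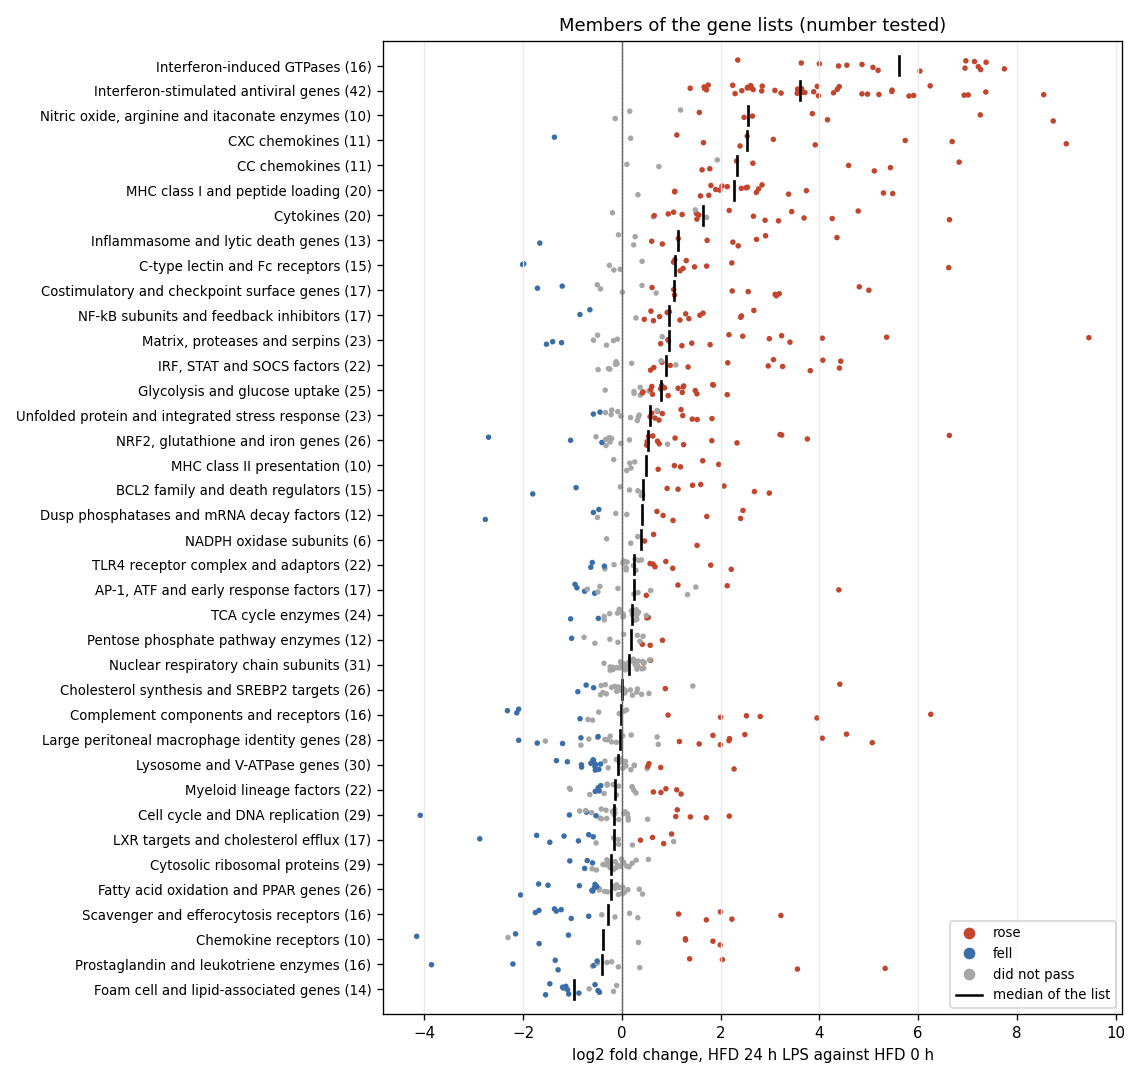
Log2 fold change of each tested member of 38 gene lists (HFD 24 h LPS against HFD 0 h), ordered by the median of the list (black bar), with members that rose in red, fell in blue and did not pass in grey. The interferon-induced GTPases and the interferon-stimulated antiviral genes lie furthest to the right, and the foam cell and lipid-associated genes have the lowest median.

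Receptor and adaptor genes that passed went both ways. Of 22 tested genes of the TLR4 complex and its adaptors, 7 rose and 3 fell, with a median of 0.25. Over all genes tested 12.7% rose and 12% fell. Tlr4 itself read 135, 149.9 and 71.9 CPM at 0 h and 122, 172 and 149 CPM at 24 h, and its groups overlapped (0.29 ± 0.20, adjusted p = 0.334). Its partner Ly96 did not pass either (0.09 ± 0.23, adjusted p = 0.828), whereas the coreceptor Cd14 read 58.9, 80.6 and 69.2 CPM at 0 h and 403, 242 and 324 CPM at 24 h. All 24 h libraries of Cd14 lay above all 0 h libraries, and it rose by 2.22 ± 0.22 (adjusted p = 8.67e-07). Myd88, the adaptor of the NF-kB branch, rose (1.03 ± 0.14, adjusted p = 1.8e-05), and Ticam1, which encodes TRIF, fell (-0.63 ± 0.14, adjusted p = 0.00276). Irak3, a kinase-dead relative of the IRAK kinases that restrains the pathway, rose from 47.3, 44.4 and 31.9 CPM to 145, 113 and 182 CPM (1.8 ± 0.21, adjusted p = 6.6e-06). The decrease of Irak1 ended without 0 h replicate 1 (0.0866), 0 h replicate 3 (0.129), 24 h replicate 1 (0.148), 24 h replicate 2 (0.142) and 24 h replicate 3 (0.0529), and that of Tab1 without 0 h replicate 2 (0.0641), 0 h replicate 3 (0.125), 24 h replicate 1 (0.051), 24 h replicate 2 (0.107) and 24 h replicate 3 (0.159).

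Subunits and feedback inhibitors of NF-kB rose in most cases. Of 17 genes 14 rose and 2 fell, with a median of 0.96. Among the subunits, Relb rose by 1.36 ± 0.17, Nfkb2 by 1.18 ± 0.20, Nfkb1 by 0.64 ± 0.16 and Rela by 0.45 ± 0.14, while Rel did not pass (0.28 ± 0.23, adjusted p = 0.415). Nfkbia, which encodes the inhibitor IkB alpha, read 32.4, 39.4 and 47.2 CPM at 0 h and 213, 175 and 231 CPM at 24 h. The groups did not overlap, and the change was 2.41 ± 0.16, adjusted p = 4.14e-09. Other inhibitors rose as well, with Nfkbie at 2.42 ± 0.24, the deubiquitinase gene Tnfaip3 at 1.64 ± 0.17 and Nfkbiz at 1.58 ± 0.28. Otulin, a deubiquitinase of linear chains, fell (-0.65 ± 0.15, adjusted p = 0.00382). Nfkbid fell with all libraries (-0.85 ± 0.25, adjusted p = 0.0168), but not without 0 h replicate 3 (0.0529), 24 h replicate 2 (0.0851) and 24 h replicate 3 (0.0758).

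Early response genes were mixed at this time point. Of 17 AP-1, ATF and early response factors 4 rose and 4 fell. Batf2, a partner of IRF1, rose most, from 3.54, 2.89 and 4.50 CPM to 59.3, 73.0 and 83.4 CPM (4.39 ± 0.22, adjusted p = 1.64e-10), and Ier3 rose by 2.13 ± 0.25. Atf3, a stress-induced repressor, read 463, 539 and 504 CPM at 0 h and 245, 402 and 246 CPM at 24 h, with every 24 h library below every 0 h library (-0.75 ± 0.16, adjusted p = 0.00216). Egr2 fell too (-0.91 ± 0.22, adjusted p = 0.00607), and Egr1 did not pass (-0.08 ± 0.25, adjusted p = 0.861). Jun and Myc were both lower at 24 h, but the call of Jun ended without 0 h replicate 3 (0.0594), 24 h replicate 2 (0.0502) and 24 h replicate 3 (0.0828), and that of Myc without 0 h replicate 3 (0.0822), 24 h replicate 2 (0.0859) and 24 h replicate 3 (0.0695). Among 12 phosphatases and mRNA decay factors, 6 rose and 3 fell. Dusp4, Dusp6 and Dusp1, which switch off MAP kinases, rose by 2.40 ± 0.26, 1.72 ± 0.23 and 1.04 ± 0.15, while Dusp2 fell from 6.14, 8.13 and 11.2 CPM to 1.58, 0.896 and 1.16 CPM (-2.77 ± 0.34, adjusted p = 8.86e-06). Zc3h12c, a relative of the RNase Regnase-1, rose by 2.45 ± 0.23, and Zfp36, which destabilises cytokine transcripts, did not pass (0.10 ± 0.19, adjusted p = 0.767).

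Factors of the interferon pathway rose without a decrease among them. Of 22 IRF, STAT, JAK and SOCS genes 13 rose and 0 fell, with a median of 0.90. Irf7, which amplifies type I interferon, read 57.7, 98.3 and 84.5 CPM at 0 h and 1664, 1956 and 1464 CPM at 24 h (4.41 ± 0.19, adjusted p = 4.01e-11). Irf1 read 28.7, 26.0 and 40.0 CPM at 0 h and 368, 484 and 442 CPM at 24 h (3.82 ± 0.18, adjusted p = 1.09e-10). Neither gene's groups came near each other. Stat2 and Irf9, which act together in an interferon-activated complex, rose by 2.96 ± 0.15 and 1.34 ± 0.13. The brakes of the pathway, Socs1 (4.43 ± 0.29), Socs3 (4.07 ± 0.26) and Cish (3.07 ± 0.37), rose as well. Irf3, Irf5, Stat6 and Tyk2 did not pass, with log2 fold changes from -0.48 ± 0.20 (Irf3) to -0.10 ± 0.12 (Stat6). Ifnb1 itself had no count at 0 h and read 0.0791, 0.336 and 0 CPM at 24 h, too low to be tested.

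All 42 tested interferon-stimulated antiviral genes rose, with a median of 3.61 and a range from 1.38 (Adar) to 8.54 (Ifit3b). They also rose without HFD 0 h replicate 3 (42 of 42). Isg15, a ubiquitin-like modifier, read 3.02, 4.79 and 5.395 CPM at 0 h and 173, 309 and 216 CPM at 24 h (5.82 ± 0.26, adjusted p = 5.04e-11). Ifit1, which binds viral RNA caps, read 6.14, 11.6 and 11.2 CPM at 0 h and 351, 714 and 612 CPM at 24 h (5.91 ± 0.35, adjusted p = 6.93e-09). Rsad2, which encodes viperin, read 34.3, 51.3 and 36.9 CPM at 0 h and 772, 1686 and 1139 CPM at 24 h (4.86 ± 0.29, adjusted p = 5.02e-09). In all 3 genes the second 24 h library was the highest and the first the lowest, and no 0 h library came near either. The RNA sensors rose by smaller amounts, with Ddx58 at 2.83 ± 0.17, Ifih1 at 2.43 ± 0.17 and Eif2ak2 at 1.71 ± 0.22. Zbp1, a sensor of left-handed nucleic acids, read 7.60, 9.80 and 5.84 CPM at 0 h and 372, 347 and 369 CPM at 24 h (5.47 ± 0.19, adjusted p = 4.42e-12). Its 24 h libraries lay close together.

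The interferon-induced GTPases, which attack the vacuoles of intracellular microbes, had the highest median of all lists. All 16 rose, with a median of 6.49, or 5.61 with Gbp10, which had no count at 0 h, at its bound of 23.6-fold. Gbp2 read 20.2, 25.0 and 22.9 CPM at 0 h and 923, 1714 and 1834 CPM at 24 h (6.04 ± 0.30, adjusted p = 2.9e-10). Irgm1 read 31.01, 37.5 and 29.7 CPM at 0 h and 372, 649 and 567 CPM at 24 h (4.0 ± 0.21, adjusted p = 2.66e-10). The first 24 h library was the lowest for both genes, yet far above 0 h. Gbp8 and Tgtp1 had 1 and 2 counts at 0 h, all in replicate 2, with ratios of 190.1 (33.9 to 7522) and 166 (45.9 to 1377). Gvin1 rose least (2.35 ± 0.37, adjusted p = 0.000107). Reads of near-identical members of the Gbp, Tgtp, Oas and Ifit families may be split by the counting, so single members are less certain than the family.

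Promoters of members that moved together were searched for the letters of 4 motifs on both strands, in RefSeq windows of GRCm38.p6 that run from 250 bases before to 50 after the start. The motifs were an interferon-stimulated response element core (GAAA and GAAA, 2 bases apart), a kappa B motif (GGGA and CC, 4 bases apart), a gamma-activated sequence (TTCNNNGAA) and an AP-1 motif (TGANTCA), where N is any base, and they can overlap. Promoters were found for 10032 of the 12641 genes tested, and the first one listed for each gene was searched. The response element core lay in 3.3% of these promoters, in 8.9% of those of genes that rose and in 1.9% of those of genes that fell. In the interferon-stimulated list it lay in 16 of 31 promoters (51.6%), and in the GTPase list in 9 of 9. Only 9 of the 16 tested GTPases had a promoter. The kappa B motif lay in 26.6% of all promoters tested, in 26.7% of genes that rose and in 28.3% of genes that fell. Among NF-kB genes it lay in 9 of 14 (64.3%) among CXC chemokines in 6 of 8 (75.0%), among CC chemokines in 1 of 6 (16.7%) and among genes that rose by at least 16-fold in 28 of 107 (26.2%). A match is a description of the letters and not a site shown to be bound. The 250 bases before the start are printed below for 5 genes that rose steeply, chosen to show the 4 motifs, with the matches in capitals. Ifit1 (chr19:34640639-34640888, plus strand) holds 2 response element cores on the reverse strand. Gbp5 (chr3:142496684-142496933, plus strand) holds 1 response element core, 1 kappa B motif and 2 gamma-activated sequences. Cxcl10 (chr5:92348890-92349139, minus strand) holds 1 response element core, 2 kappa B motifs and 1 AP-1 motif. Cxcl3 (chr5:90785851-90786100, plus strand) holds 2 overlapping kappa B motifs, and Acod1 (chr14:103046762-103047011, plus strand) holds 1.
Ifit1: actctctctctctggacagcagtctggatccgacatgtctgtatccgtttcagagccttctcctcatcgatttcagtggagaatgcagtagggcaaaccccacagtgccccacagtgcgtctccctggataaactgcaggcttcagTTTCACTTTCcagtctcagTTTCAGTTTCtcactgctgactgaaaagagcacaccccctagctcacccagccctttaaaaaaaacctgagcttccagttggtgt
Gbp5: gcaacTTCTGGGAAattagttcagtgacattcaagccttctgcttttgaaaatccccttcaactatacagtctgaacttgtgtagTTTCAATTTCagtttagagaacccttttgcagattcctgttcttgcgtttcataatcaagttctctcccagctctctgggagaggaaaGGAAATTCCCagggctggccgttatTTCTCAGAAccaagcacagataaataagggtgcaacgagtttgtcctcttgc
Cxcl10: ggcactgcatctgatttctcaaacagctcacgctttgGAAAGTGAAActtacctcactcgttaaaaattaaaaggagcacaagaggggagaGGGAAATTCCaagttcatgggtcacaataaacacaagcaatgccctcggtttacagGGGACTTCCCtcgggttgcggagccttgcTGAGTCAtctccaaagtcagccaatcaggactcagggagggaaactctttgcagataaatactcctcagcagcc
Cxcl3: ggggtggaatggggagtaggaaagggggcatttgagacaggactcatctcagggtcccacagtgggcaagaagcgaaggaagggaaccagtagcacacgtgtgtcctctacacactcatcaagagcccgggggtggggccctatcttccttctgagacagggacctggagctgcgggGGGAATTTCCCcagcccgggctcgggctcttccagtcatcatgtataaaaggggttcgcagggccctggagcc
Acod1: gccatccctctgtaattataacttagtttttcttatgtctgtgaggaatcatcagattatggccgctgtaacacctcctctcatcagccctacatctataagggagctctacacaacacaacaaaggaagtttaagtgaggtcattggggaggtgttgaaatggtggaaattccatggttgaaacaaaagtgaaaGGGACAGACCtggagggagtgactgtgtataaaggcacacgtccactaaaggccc

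Cytokine transcripts rose in most cases, although several stayed scarce. Of 20 tested cytokines 16 rose and 0 fell, with a median of 1.64. Tnf (chr17:35199367-35202007) read 23.7, 13.4 and 27.0 CPM at 0 h and 209, 129 and 218 CPM at 24 h (3.17 ± 0.26, adjusted p = 1.1e-07). Il1b (chr2:129364569-129371164) read 0.728, 0.557 and 0.450 CPM at 0 h and 76.9, 23.8 and 88.0 CPM at 24 h (6.64 ± 0.61, adjusted p = 1.96e-06). In both genes the second 24 h library was the lowest of the 3, and still above every 0 h library. Il1rn, the antagonist of the IL-1 receptor, read 367, 402 and 242 CPM at 0 h and 806, 1085 and 1024 CPM at 24 h (1.52 ± 0.18, adjusted p = 7.41e-06). Il6 had 1 count at 0 h, in replicate 2, and read 1.11, 0.840 and 1.34 CPM at 24 h, a ratio of 23.2 with a counting interval of 3.995 to 930.3. Il12a had no count at 0 h, read 1.90, 0.672 and 2.82 CPM at 24 h and was at least 12.9-fold higher, and Il12b did not pass (1.72 ± 0.88, adjusted p = 0.177). The growth factors Csf1 and Vegfa rose by 1.51 ± 0.25 and 1.05 ± 0.21, and Tgfb1 did not pass (-0.19 ± 0.16, adjusted p = 0.453). Il10, Il23a, Csf2, Csf3 and Lta were too scarce to test, at most 0.87 CPM in any HFD library.

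Chemokines of both families rose, and the receptors went both ways. Of 11 CC chemokines 8 rose, and of 11 CXC chemokines 9 rose and 1 fell. Ccl5, which attracts T cells and monocytes, read 41.3, 47.1 and 33.3 CPM at 0 h and 1908, 1793 and 1670.0 CPM at 24 h (5.44 ± 0.17, adjusted p = 1.09e-12). Ccl2, a monocyte attractant, read 13.4, 16.9 and 7.64 CPM at 0 h and 459, 496 and 456 CPM at 24 h (5.11 ± 0.24, adjusted p = 1.09e-10). The 24 h libraries of both genes lay within a narrow range. Cxcl10, a ligand of CXCR3, read 2.08, 2.89 and 4.50 CPM at 0 h and 84.0, 163 and 196 CPM at 24 h (5.74 ± 0.39, adjusted p = 3.68e-08), with the first 24 h library at the bottom. Cxcl2, a neutrophil attractant, read 1.25, 3.01 and 0.450 CPM at 0 h and 46.3, 7.78 and 31.8 CPM at 24 h instead, with the second 24 h library at the bottom (3.92 ± 0.61, adjusted p = 0.000292; 4.72 without 0 h replicate 2; not called by limma-voom, adjusted p = 0.0726). Cxcl14 was the one CXC chemokine that fell (-1.37 ± 0.21, adjusted p = 9.08e-05). The increases of Cxcl1 and Cxcl5 depended on single libraries: that of Cxcl1 (2.39 ± 0.70; 1.73 without 24 h replicate 1) ended without 0 h replicate 2 (0.109) and 24 h replicate 1 (0.0645), and Cxcl5 without 0 h replicate 1 (0.111), 0 h replicate 3 (0.0951), 24 h replicate 2 (0.0914) and 24 h replicate 3 (0.0802). Of 10 receptors 4 rose and 4 fell. Ccr1 read 71.1, 94.7 and 62.0 CPM at 0 h and 303, 309 and 305 CPM at 24 h (1.99 ± 0.15, adjusted p = 1.68e-08). Cx3cr1, the fractalkine receptor, read 16.3, 15.03 and 23.4 CPM at 0 h and 4.11, 2.02 and 5.68 CPM at 24 h (-2.15 ± 0.29, adjusted p = 2.74e-05), and Cxcr4 fell as well (-1.08 ± 0.18, adjusted p = 0.000248). Levels of Ccr2 were low, at 4.27, 6.90 and 3.60 CPM at 0 h and 1.503, 2.30 and 1.02 CPM at 24 h, and it fell (-1.68 ± 0.38, adjusted p = 0.00284).

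Of 10 nitric oxide, arginine and itaconate genes 7 rose and 0 fell, with a median of 2.56. Beside Nos2 and Acod1, Ass1, which regenerates arginine for nitric oxide synthesis, read 6.45, 4.01 and 1.798 CPM at 0 h and 93.8, 66.8 and 92.9 CPM at 24 h (4.17 ± 0.26, adjusted p = 2.88e-09). Slc7a2, an arginine carrier, read 46.6, 47.2 and 36.4 CPM at 0 h and 582, 325 and 1011 CPM at 24 h (3.86 ± 0.35, adjusted p = 1.63e-06). For Slc7a2 the 24 h libraries scattered, and the second was the lowest. Both arginases rose, Arg1 by 2.48 ± 0.49 (3.44 without 0 h replicate 2) and Arg2 by 2.64 ± 0.36 (3.34 without 0 h replicate 2), and the 0 h libraries of Arg1 ranged from 16.5 to 83.9 CPM. In the prostaglandin pathway Ptgs2 read 2.29, 1.45 and 4.05 CPM at 0 h and 20.9, 14.2 and 42.3 CPM at 24 h (3.56 ± 0.43, adjusted p = 1.23e-05), and Ptges, the inducible synthase of prostaglandin E, read 3.75, 6.79 and 6.74 CPM at 0 h and 248, 193 and 224 CPM at 24 h (5.33 ± 0.23, adjusted p = 4.01e-11). Both stood clear of 0 h in every library. The constitutive Ptgs1 fell (-1.29 ± 0.19, adjusted p = 7.62e-05), and so did Hpgds, the synthase of prostaglandin D (-2.21 ± 0.23, adjusted p = 2.04e-06), and Hpgd, which degrades prostaglandins and was scarce throughout (-3.86 ± 0.71, adjusted p = 0.000568). Of 16 genes of the prostaglandin and leukotriene list 4 rose and 6 fell.

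Inflammasome genes and regulators of cell death followed. Of 13 inflammasome and lytic death genes 9 rose and 1 fell, with a median of 1.14. Nlrp3, a sensor, read 9.78, 14.1 and 8.09 CPM at 0 h and 54.0, 41.3 and 75.9 CPM at 24 h (2.36 ± 0.24, adjusted p = 9.55e-07), and Casp4, the mouse caspase 11 that binds cytosolic LPS, read 13.0, 15.4 and 10.8 CPM at 0 h and 55.2, 107 and 104 CPM at 24 h (2.73 ± 0.26, adjusted p = 5.68e-07). Mlkl, the effector of necroptosis, rose by 2.91 ± 0.23, and Gsdmd, the pore of pyroptosis, by 1.14 ± 0.14. Nlrp1b fell (-1.66 ± 0.31, adjusted p = 0.000677), and Ninj1 did not pass (-0.07 ± 0.15, adjusted p = 0.801). Il18bp, which neutralises IL-18, read 7.60, 16.1 and 4.95 CPM at 0 h and 156, 298 and 191 CPM at 24 h (4.36 ± 0.39, adjusted p = 1.3e-06; 4.98 without 0 h replicate 2), while Il18 did not pass (0.64 ± 0.34, adjusted p = 0.199). In the BCL2 list 7 of 15 genes rose and 2 fell. The death-promoting Bcl2l11 read 84.1, 80.9 and 69.7 CPM at 0 h and 24.0, 25.5 and 18.2 CPM at 24 h (-1.804 ± 0.16, adjusted p = 2.05e-07), and the anti-apoptotic Cflar rose by 2.07 ± 0.16. Bcl2a1a and Bcl2a1d rose by 2.99 ± 0.38 (3.82 without 0 h replicate 1) and 2.69 ± 0.26 and Bcl2a1b did not pass (0.42 ± 0.21, adjusted p = 0.166); these copies are near identical, so their separate values are uncertain.

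Of 16 complement genes 6 rose and 4 fell. Cfb (chr17:34856374-34862514), factor B of the alternative pathway, read 41.0, 55.2 and 41.8 CPM at 0 h and 3320.4, 3477 and 3836 CPM at 24 h. Both groups were tight and lay far apart, with a log2 fold change of 6.26 ± 0.19, adjusted p = 9.76e-13. C3, the central component, read 160.4, 191 and 167 CPM at 0 h and 893, 934 and 1157 CPM at 24 h (2.52 ± 0.18, adjusted p = 1.77e-08), and C1ra rose by 3.95 ± 0.23. C5ar2 and Vsig4, receptors for complement fragments, fell by 2.32 (SE 0.25) and 2.09 (SE 0.29) on the log2 scale. C1qc fell with all libraries (-0.85 ± 0.23, adjusted p = 0.0118), but not without 0 h replicate 2 (0.0559), and C1qa and C1qb did not pass. Saa3, an acute-phase serum amyloid, read 86.2, 148 and 97.6 CPM at 0 h and 2733, 3394 and 1678 CPM at 24 h (4.55 ± 0.28, adjusted p = 5.5e-09). Lcn2, which withholds iron from bacteria, read 0.833, 2.67 and 2.70 CPM at 0 h and 186, 195 and 175 CPM at 24 h (6.63 ± 0.33, adjusted p = 2.52e-10; 7.22 without 0 h replicate 2), and Hp, haptoglobin, rose by 3.24 ± 0.27.

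Genes of antigen presentation on MHC class I rose in all cases but H2-D1. Of 20 class I genes 19 rose and 0 fell, with a median of 2.28. B2m, the light chain, read 4347, 4114 and 2567 CPM at 0 h and 10472, 10709 and 12096 CPM at 24 h (1.59 ± 0.25, adjusted p = 0.00013). H2-K1 read 741, 793 and 984 CPM at 0 h and 3026, 2929 and 2571 CPM at 24 h (1.76 ± 0.13, adjusted p = 2.62e-08), while H2-D1 did not pass (0.33 ± 0.14, adjusted p = 0.0943). Tap1, the peptide transporter, read 37.9, 54.5 and 33.3 CPM at 0 h and 521, 631 and 556 CPM at 24 h (3.74 ± 0.18, adjusted p = 1.01e-10), and the immunoproteasome subunits Psmb8, Psmb9 and Psmb10 rose by 2.42 ± 0.14, 2.51 ± 0.21 and 2.54 ± 0.15. H2-Q6 and H2-Q7 rose by 5.49 ± 0.25 and 5.30 ± 0.19, and reads of these close relatives may be shared. Of 10 class II genes 5 rose, among them H2-DMa, which edits peptide loading (1.19 ± 0.19, adjusted p = 0.000112), and the transactivator Ciita (1.64 ± 0.32, adjusted p = 0.000846). H2-Aa, H2-Eb1 and Cd74 did not pass (0.10 ± 0.25, 0.18 ± 0.22 and 0.26 ± 0.19). The calls of H2-Ab1 (0.74 ± 0.22, adjusted p = 0.0205) and H2-Oa (1.96 ± 0.62, adjusted p = 0.0284) ended on leaving out single libraries: H2-Ab1 without 0 h replicate 1 (0.0855), 0 h replicate 3 (0.0873) and 24 h replicate 2 (0.0922), and H2-Oa without 0 h replicate 1 (0.0941), 24 h replicate 1 (0.0601) and 24 h replicate 2 (0.0912).

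Surface molecules that speak to T cells or bind antibody and microbes rose in most cases. Of 17 costimulatory and checkpoint genes 10 rose and 2 fell. Cd274, which encodes PD-L1, read 151, 124 and 151 CPM at 0 h and 997, 1362 and 1508 CPM at 24 h (3.19 ± 0.20, adjusted p = 2.88e-09), Cd86 rose by 3.10 ± 0.22 and Cd40 by 3.13 ± 0.28. Slamf1 was not counted at 0 h, read 3.48, 5.10 and 4.90 CPM at 24 h and was at least 32.1-fold higher. Vsir, which encodes the checkpoint VISTA, read 655, 681 and 848 CPM at 0 h and 259, 219.9 and 188 CPM at 24 h. No 24 h library reached the lowest 0 h library, and it fell (-1.71 ± 0.14, adjusted p = 8e-08), as did Cd83 (-1.21 ± 0.19, adjusted p = 0.000118). Of 15 C-type lectin and Fc receptors 9 rose and 2 fell. Clec4e (chr6:123281789-123289871), which encodes Mincle, read 15.7, 18.3 and 20.7 CPM at 0 h and 1419.7, 1476 and 2368 CPM at 24 h (6.62 ± 0.28, adjusted p = 5.04e-11). The mannose receptor Mrc1 read 327, 289.9 and 228 CPM at 0 h and 79.0, 81.5 and 53.4 CPM at 24 h (-1.99 ± 0.19, adjusted p = 5.55e-07). Fcgr1, the high-affinity receptor for IgG, rose by 2.23 ± 0.25.

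Scavenger and efferocytosis receptors split. Of 16 genes 5 rose and 7 fell, with a median of -0.27. Msr1, which takes up modified lipoproteins, read 177, 176 and 132 CPM at 0 h and 477, 572 and 548 CPM at 24 h (1.71 ± 0.15, adjusted p = 1.1e-07), and Marco and Olr1 rose by 2.23 ± 0.26 and 3.22 ± 0.43. Cd36, which also takes up oxidised lipoproteins, read 2855, 2933 and 2160.3 CPM at 0 h and 1157, 1434 and 1314 CPM at 24 h (-1.03 ± 0.15, adjusted p = 4.07e-05). Lrp1 read 2784, 2004 and 3992 CPM at 0 h and 1399, 997 and 1346 CPM at 24 h (-1.23 ± 0.20, adjusted p = 0.000148), and the bridging molecules Mfge8 and Gas6 fell by 1.33 (SE 0.25) and 1.75 (SE 0.24) on the log2 scale. Axl rose (1.15 ± 0.17, adjusted p = 6.14e-05) while Mertk, its relative, did not pass (-0.41 ± 0.21, adjusted p = 0.18).

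Among genes that mark large peritoneal macrophages 10 of 28 rose and 5 fell, with a median of -0.05. Gata6, the factor that sets their identity, was low, at 8.74, 12.7 and 8.99 CPM at 0 h and 6.57, 6.66 and 4.25 CPM at 24 h, and did not pass (-0.83 ± 0.36, adjusted p = 0.114). Adgre1, which encodes F4/80, read 282, 309 and 179.8 CPM at 0 h and 738, 732 and 824 CPM at 24 h (1.57 ± 0.20, adjusted p = 1.22e-05). F10, coagulation factor X, read 90.5, 91.2 and 97.6 CPM at 0 h and 339.7, 329 and 332 CPM at 24 h (1.85 ± 0.12, adjusted p = 6.39e-09), and Thbs1 rose by 2.17 ± 0.20. Cd93 read 769, 812 and 651 CPM at 0 h and 224, 248 and 209.8 CPM at 24 h (-1.71 ± 0.13, adjusted p = 2.22e-08). Cd93 was thus lower in every 24 h library, as was Cd9 (-1.20 ± 0.16). Timd4 was scarce, at 0.520, 1.22 and 0 CPM at 0 h and 1.503, 3.47 and 3.84 CPM at 24 h, and its increase (1.997 ± 0.62; 2.86 without 0 h replicate 2) ended without 0 h replicate 1 (0.117), 24 h replicate 2 (0.0642) and 24 h replicate 3 (0.0886). Of 22 myeloid lineage factors 5 rose and 4 fell. Cebpb read 224, 187 and 313 CPM at 0 h and 785, 441 and 427 CPM at 24 h (1.20 ± 0.28, adjusted p = 0.00482), Spi1, which encodes PU.1, did not pass (-0.11 ± 0.11, adjusted p = 0.548), and Klf4, Klf6 and Id2 rose by 0.79 ± 0.18, 0.64 ± 0.13 and 0.89 ± 0.15.

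The pentose phosphate pathway, the subject of the series' title, mostly did not pass. Of 12 enzymes 3 rose and 1 fell, with a median of 0.18, and without HFD 0 h replicate 3 1 rose and 1 fell. G6pdx, the rate-limiting enzyme of the oxidative branch, read 249, 190.2 and 126 CPM at 0 h and 286, 265 and 299 CPM at 24 h. The shallow 0 h library was the lowest, and all 3 libraries at 24 h lay above the highest at 0 h. G6pdx rose with all libraries (0.57 ± 0.19, adjusted p = 0.0365), but not without 0 h replicate 2 (0.0796), 0 h replicate 3 (0.117), 24 h replicate 1 (0.0609) and 24 h replicate 3 (0.0844), nor when only the 6 HFD libraries were fitted (0.0649). H6pd, its relative in the endoplasmic reticulum, read 91.8, 94.2 and 93.1 CPM at 0 h and 126, 121 and 125 CPM at 24 h. Although the groups did not overlap, its call (0.41 ± 0.14, adjusted p = 0.039) ended on leaving out any 1 of the 6 libraries, with adjusted p from 0.0509 to 0.0797. Pgd, the second oxidative enzyme that makes NADPH, read 555, 457 and 559.8 CPM at 0 h and 516, 476 and 494 CPM at 24 h and did not pass (-0.08 ± 0.14, adjusted p = 0.751). In the non-oxidative branch, Taldo1, transaldolase, read 343, 287 and 435 CPM at 0 h and 183, 196 and 145 CPM at 24 h. All its 24 h libraries lay below its 0 h libraries, and it fell (-1.02 ± 0.16, adjusted p = 9.04e-05; without HFD 0 h replicate 3 -0.85 ± 0.14, adjusted p = 0.000326). Rpe, the epimerase, read 23.6, 30.1 and 26.1 CPM at 0 h and 44.5, 49.2 and 47.6 CPM at 24 h and rose (0.82 ± 0.14, adjusted p = 0.000266). Tkt, transketolase, overlapped between the groups at 477, 299 and 517 CPM at 0 h and 424, 295 and 371 CPM at 24 h (-0.24 ± 0.18, adjusted p = 0.356). Shpk, the sedoheptulose kinase, was at 10 CPM or below and did not pass (-0.77 ± 0.42, adjusted p = 0.211), and neither did Pgls (-0.55 ± 0.31, adjusted p = 0.231), Rpia (0.36 ± 0.22, adjusted p = 0.257), Rbks (0.43 ± 0.30, adjusted p = 0.335), Prps1 (0.32 ± 0.21, adjusted p = 0.317) or Prps2 (0.04 ± 0.18, adjusted p = 0.911).

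Of 6 NADPH oxidase subunits 3 rose and 0 fell. Cybb, the catalytic subunit of the phagocyte NADPH oxidase, read 1252, 1065 and 1199 CPM at 0 h and 2969, 2696 and 4439 CPM at 24 h (1.52 ± 0.18, adjusted p = 6.64e-06), and Rac2 rose by 0.64 ± 0.13. Ncf1 rose with all libraries (0.46 ± 0.15, adjusted p = 0.0331) but not without 0 h replicate 1 (0.0826), 0 h replicate 2 (0.138), 24 h replicate 1 (0.0753) and 24 h replicate 3 (0.0838). Cyba and Ncf4 did not pass (0.18 ± 0.15 and 0.32 ± 0.14). Glutathione and NRF2 genes were mixed, with 14 of 26 rising and 3 falling. Slc7a11, the cystine carrier, read 34.9, 26.7 and 27.0 CPM at 0 h and 141, 76.0 and 233 CPM at 24 h (2.33 ± 0.30, adjusted p = 2.74e-05), and Gsr, which uses NADPH to recycle glutathione, rose by 0.51 ± 0.11. Hmox1, which breaks down haem, read 457, 429 and 402 CPM at 0 h and 1089, 1069 and 910.1 CPM at 24 h (1.25 ± 0.15, adjusted p = 6.08e-06), while Nqo1, Gclc and Txnrd1 did not pass. Sod2, the mitochondrial superoxide dismutase, read 106, 85.2 and 80.5 CPM at 0 h and 1256, 1063 and 1381 CPM at 24 h (3.76 ± 0.16, adjusted p = 3.92e-11), and Gpx1 fell (-1.04 ± 0.19, adjusted p = 0.000617). In iron handling, the ferritin heavy chain Fth1 rose (1.08 ± 0.19, adjusted p = 0.000412) and the iron exporter Slc40a1 read 8.33, 13.9 and 2.25 CPM at 0 h and 1.03, 2.30 and 0.739 CPM at 24 h (-2.70 ± 0.50, adjusted p = 0.00056; -3.32 without 24 h replicate 2). The light chain Ftl1 did not pass (-0.26 ± 0.13, adjusted p = 0.186).

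Genes of glycolysis rose in most cases. Of 25 genes 18 rose and 0 fell, with a median of 0.79. Slc2a1, the glucose carrier, read 143, 104 and 133 CPM at 0 h and 219.9, 246 and 258 CPM at 24 h (0.94 ± 0.14, adjusted p = 7.71e-05). Hk2, hexokinase 2, read 86.2, 67.0 and 109 CPM at 0 h and 211, 242 and 289 CPM at 24 h (1.52 ± 0.17, adjusted p = 2.23e-06). Ldha, which makes lactate, read 419, 559 and 429 CPM at 0 h and 939, 1348 and 1068 CPM at 24 h (1.25 ± 0.16, adjusted p = 1.01e-05). In each of these genes the groups did not overlap. Hif1a, a regulator of glycolytic genes, rose by 1.84 ± 0.19, Pfkfb3 by 1.49 ± 0.13, Pfkl by 1.22 ± 0.13 and the lactate exporter Slc16a3 by 1.85 ± 0.34. Of 24 enzymes of the tricarboxylic acid cycle 2 rose and 2 fell, beside 12.7% and 12% of all genes tested. Idh1, the cytosolic isocitrate dehydrogenase that also makes NADPH, read 336, 392 and 215 CPM at 0 h and 153, 157 and 151 CPM at 24 h (-1.04 ± 0.17, adjusted p = 0.000171), and Idh3b rose (0.53 ± 0.14, adjusted p = 0.00924). Idh2 was called with all libraries (-0.48 ± 0.17, adjusted p = 0.0464), but not without 0 h replicate 2 (0.0853), 0 h replicate 3 (0.187), 24 h replicate 1 (0.0805), 24 h replicate 2 (0.0932) and 24 h replicate 3 (0.19). Idh3a was called too (0.51 ± 0.16, adjusted p = 0.0249), but not without 0 h replicate 1 (0.112), 24 h replicate 2 (0.0521) and 24 h replicate 3 (0.0951). Nuclear-encoded subunits of the respiratory chain were close to no change, with 2 of 31 rising, 0 falling and a median of 0.14.

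Most genes that mark lipid-laden macrophages fell. Of 14 foam cell and lipid-associated genes 0 rose and 11 fell, with a median of -0.97. Trem2, a lipid-sensing receptor, read 987, 1117 and 1234 CPM at 0 h and 400.1, 446 and 298 CPM at 24 h (-1.54 ± 0.15, adjusted p = 4.42e-07). Gpnmb read 25175, 21671 and 25264 CPM at 0 h and 13656, 12880.0 and 12902 CPM at 24 h (-0.87 ± 0.13, adjusted p = 5.01e-05). Apoe, the apolipoprotein that carries cholesterol out of macrophages, read 8832, 8766 and 6783 CPM at 0 h and 3543, 3697 and 1629 CPM at 24 h (-1.46 ± 0.24, adjusted p = 0.000206). No 24 h library reached the lowest 0 h library in any of the 3 genes. Lpl fell with all libraries (-0.54 ± 0.17, adjusted p = 0.0228), but not without 0 h replicate 1 (0.114), 0 h replicate 2 (0.0527) and 24 h replicate 2 (0.136), and Fabp5, Cd63 and Ctsl did not pass.

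Lipid handling genes outside that list went both ways. Of 17 LXR targets and efflux genes 4 rose and 7 fell. Abca1, which exports cholesterol, read 408, 595 and 337 CPM at 0 h and 769, 809 and 839.7 CPM at 24 h (0.85 ± 0.16, adjusted p = 0.00084), whereas Abcg1 did not pass (-0.52 ± 0.20, adjusted p = 0.0634). The cholesterol ester hydrolases Lipa, of the lysosome, and Nceh1 both fell. Lipa read 2531, 2712 and 1843 CPM at 0 h and 671, 821 and 652 CPM at 24 h (-1.73 ± 0.17, adjusted p = 5.74e-07) and Nceh1 read 669, 765 and 607 CPM at 0 h and 263, 367 and 276 CPM at 24 h (-1.17 ± 0.15, adjusted p = 1.14e-05). Soat1, which makes cholesterol esters, fell (-0.58 ± 0.16, adjusted p = 0.0125). Of 26 fatty acid oxidation and PPAR genes 0 rose and 9 fell. Pparg read 86.0, 77.2 and 67.9 CPM at 0 h and 20.8, 18.5 and 16.9 CPM at 24 h (-2.05 ± 0.17, adjusted p = 9.94e-08), and its targets Fabp4 and Plin2 fell by 1.496 (SE 0.27) and 0.86 (SE 0.13) on the log2 scale. Cpt1a, which admits fatty acids to mitochondria, did not pass (0.01 ± 0.15, adjusted p = 0.959).

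Cholesterol synthesis showed no common direction in HFD, with 2 of 26 rising, 3 falling and a median near 0. Ch25h, which makes the oxysterol 25-hydroxycholesterol, read 0.208, 0.890 and 0 CPM at 0 h and 10.05, 9.57 and 11.3 CPM at 24 h and rose (4.41 ± 0.44, adjusted p = 7.48e-07; 5.87 without 0 h replicate 2). Fdft1, squalene synthase, read 194, 200.2 and 102 CPM at 0 h and 86.6, 76.2 and 107 CPM at 24 h and fell (-0.89 ± 0.22, adjusted p = 0.00696). The call of Hsd17b7 ended without 0 h replicate 2 (0.0959) and 24 h replicate 3 (0.0984), that of Sc5d without 0 h replicate 1 (0.0811) and 24 h replicate 2 (0.0866), and that of Stard4 without 0 h replicate 1 (0.131), 0 h replicate 3 (0.0924), 24 h replicate 1 (0.0621) and 24 h replicate 2 (0.158).

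Of 30 lysosomal genes 12 fell and 4 rose, and 14 did not pass. Tfeb, a regulator of lysosomal genes, read 81.8, 77.0 and 62.5 CPM at 0 h and 43.2, 32.03 and 29.0 CPM at 24 h (-1.10 ± 0.19, adjusted p = 0.000249). Atp6v0d2, a subunit of the proton pump, read 1929, 1711 and 1106 CPM at 0 h and 629, 651 and 616 CPM at 24 h (-1.32 ± 0.21, adjusted p = 0.000133). Ctsc, the cathepsin that activates serine proteases, went the other way, at 173, 167 and 125 CPM at 0 h and 656, 773 and 832 CPM at 24 h (2.27 ± 0.16, adjusted p = 9.62e-09). In the list of unfolded protein and integrated stress genes 11 of 23 rose and 2 fell. Pdia4, a chaperone of the endoplasmic reticulum, rose by 1.23 ± 0.13, Mthfd2, of mitochondrial folate metabolism, by 1.20 ± 0.17, and Asns by 1.43 ± 0.23, whereas Atf4, Xbp1 and Hspa5 did not pass.

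Of 29 cell cycle genes 5 rose and 4 fell, beside 12.7% and 12% of all genes tested. Mki67, a marker of dividing cells, overlapped between the groups, at 28.9, 18.1 and 27.4 CPM at 0 h and 24.7, 18.1 and 37.6 CPM at 24 h (0.13 ± 0.26, adjusted p = 0.77). The inhibitors moved apart: Cdkn1a, which encodes p21, read 58.2, 69.5 and 41.4 CPM at 0 h and 254, 276 and 249 CPM at 24 h (2.17 ± 0.17, adjusted p = 3.25e-08), opposite to the fall of Cdkn1c. Of 23 matrix, protease and serpin genes 13 rose and 3 fell. Tgfbi read 59.1, 45.6 and 92.2 CPM at 0 h and 665, 415 and 725 CPM at 24 h (3.24 ± 0.24, adjusted p = 2.92e-08), and Timp1, an inhibitor of matrix proteases, rose by 3.41 ± 0.32. Mmp12, macrophage elastase, read 6299.5, 5672 and 3839 CPM at 0 h and 1821, 1633 and 2032 CPM at 24 h (-1.53 ± 0.16, adjusted p = 1.74e-06), and Timp2 fell (-1.40 ± 0.15, adjusted p = 2.37e-06). Of 29 cytosolic ribosomal protein genes 0 rose and 4 fell, with a median of -0.22.

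On a scale of RPKM (reads per kilobase of transcript, scaled by depth), which allows levels of different genes to be compared, the order of the most abundant transcripts differed between 0 h and 24 h. Among 12363 genes with a transcript length, Fth1 went from rank 7 to rank 2 and B2m from rank 13 to rank 3 by the mean of 3 libraries. Saa3 went from rank 246 to rank 8, Ccl5 from 732 to 15 and Cfb from 3436 to 30. The antiviral membrane protein genes Ifitm3 and Bst2 went from rank 333 to 22 and from 443 to 28. The loss in CPM of Mir6236, 1 of the 10 largest among genes that passed, rested on 1 library. Mir6236 read 3452, 2941 and 16255 CPM at 0 h and 1305, 1594 and 1401 CPM at 24 h, and without HFD 0 h replicate 3 it did not pass (-1.15 ± 0.54, adjusted p = 0.163).

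The 3 libraries at 24 h differed among themselves by gene group. Among members with a mean of at least 5 CPM, all 15 interferon-induced GTPases and 34 of 42 interferon-stimulated genes were lowest in replicate 1, which also carries the lane tag, against 3563 of all 9522 genes. Replicate 2 was the lowest of the 3 for 13 of 17 NF-kB genes and for 23 of 23 cholesterol synthesis genes, and the highest for 32 of 42 interferon-stimulated genes and 8 of 8 class II genes, against 2846 lowest and 2862 highest of all 9522 genes. The median deviation of the GTPases in replicate 1 from the mean of the 3 libraries was -0.60 on the log2(CPM + 1) scale, and that of the cholesterol genes in replicate 2 was -0.525. At 0 h, too, replicate 2 was the lowest for 20 of 23 cholesterol genes and the highest for 7 of 8 class II genes, against 2961 lowest and 3049 highest of all 9502 genes. The part of lane, depth or cell state in these differences was not tested.

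**Figure D4:**
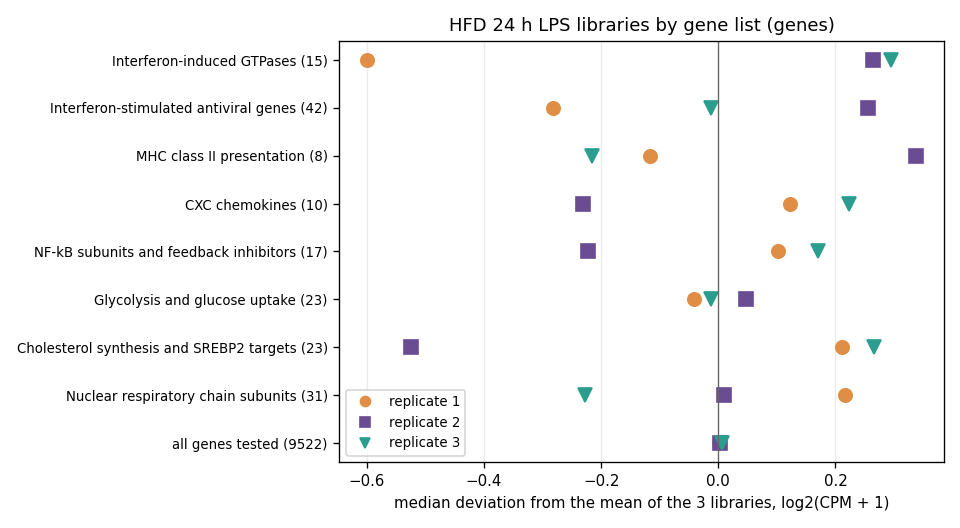
Median deviation of the members of 8 gene lists, and of all genes tested, from the mean of the 3 HFD 24 h libraries, on the log2(CPM + 1) scale, with 1 symbol per library and the number of genes in parentheses. Replicate 1 lies lowest for both interferon lists, replicate 2 lowest for the cholesterol, NF-kB and CXC chemokine lists, and all genes together lie near 0.

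The response was set against that of chow macrophages by the difference of the log2 fold changes, which uses separate controls for each diet. Every chow 24 h library and no chow 0 h library carries the lane tag, so in chow the tag and LPS cannot be told apart. In HFD only 24 h replicate 1 carries it. A difference between the responses can therefore not be told apart from the tag. In edgeR's test 0 of 12641 genes (0.0%) passed, with 297 at an unadjusted p below 0.05 and a smallest adjusted p of 0.0805. DESeq2 called 9 genes, limma-voom 0, and limma-voom with sample quality weights 5. The 9 genes were Ccl5, Cfb, Irf7, Ly6e, Ly6i, Nos2, Oas3, Rtp4 and Zbp1. They were picked for this difference, so their values are a description. In 8 of them the log2 fold change was higher in HFD. For Cfb the log2 fold change was 6.26 ± 0.19 in HFD and 4.88 ± 0.17 in chow, a difference of 1.37 ± 0.21 (adjusted p = 0.0805 in edgeR). Mean Cfb was 46.0 CPM at 0 h and 3545 at 24 h in HFD, and 124 and 3645 in chow. For Ccl5 the difference was 1.24 ± 0.20 (0.0805), with means of 40.6 and 1790 CPM in HFD and 98.2 and 1807 in chow. Irf7, Oas3, Rtp4, Zbp1, Ly6e and Ly6i had differences of 1.12 ± 0.23, 1.09 ± 0.19, 1.39 ± 0.29, 1.11 ± 0.24, 0.74 ± 0.17 and 2.16 ± 0.43. Their adjusted p in edgeR was 0.133 for Oas3, 0.354 for Ly6i, 0.586 for Ly6e and 0.395 for Irf7, Rtp4 and Zbp1. Ly6i was scarce at HFD 0 h, at 0.728, 0.557 and 0 CPM. In the 8 genes with the higher fold change in HFD, all 3 HFD libraries lay below all 3 chow libraries at 0 h, while at 24 h the diets overlapped. The choice of genes by this difference favours low HFD values at 0 h. The share of all genes tested that separate the diets in this way was not counted. Nos2 went the other way, and with no count in chow at 0 h its fitted fold there is no measure of size. At 24 h Nos2 read 119, 257 and 261 CPM in HFD and 492, 505 and 656 CPM in chow. Of the pentose phosphate enzymes none passed the test of the difference, with 0.08 ± 0.27 for G6pdx and -0.16 ± 0.22 for Taldo1 (adjusted p = 1 for both).

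**Figure D5:**
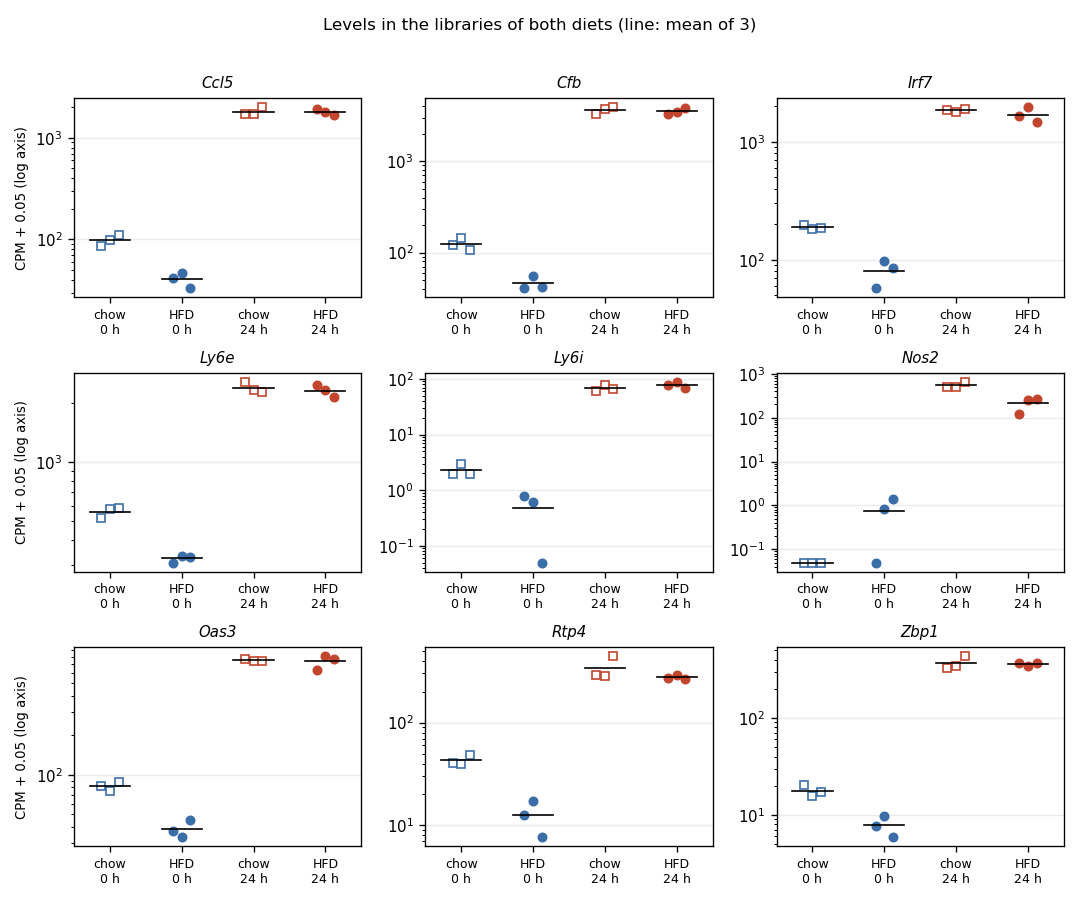
CPM + 0.05 on a log axis in all 12 libraries for the 9 genes that DESeq2 called in the difference between the responses of the diets, with open squares for chow, filled circles for HFD, blue for 0 h, red for 24 h of LPS and a black line at the mean of 3. In 8 panels HFD lies below chow at 0 h, which the choice of these genes favours, and the diets overlap at 24 h. In the Nos2 panel chow is at 0 before LPS and above HFD after it.

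Markers of other cells were few. The B cell markers summed to 9.44 to 24.5 CPM at 0 h and 6.89 to 16 CPM at 24 h, and 0 of 8 tested members passed. Of the T and NK cell markers, which summed to at most 14.8 CPM, Gzmb had 1 count at 0 h, in replicate 2, and rose (37.5-fold, counting interval 6.57 to 1498), and the call of Lck ended without 0 h replicate 1 (0.107), 0 h replicate 2 (0.132), 0 h replicate 3 (0.0539), 24 h replicate 1 (0.0654) and 24 h replicate 2 (0.166), and that of Cd5 without 0 h replicate 1 (0.0556), 0 h replicate 2 (0.192), 0 h replicate 3 (0.0535), 24 h replicate 1 (0.0604), 24 h replicate 2 (0.151) and 24 h replicate 3 (0.113). Of the neutrophil markers, S100a9 was at 0 in all 6 libraries, while S100a8 was counted in all 6. S100a8 rose from 12.7, 11.02 and 13.0 CPM to 31.96, 20.3 and 20.3 CPM, a call that ended without 0 h replicate 2 (0.0549) and 24 h replicate 1 (0.062). Csf3r, which did not pass, made up most of the 93.1 to 153 CPM of that list. The mesothelial and stromal markers summed to 773 to 1493 CPM at 0 h and 1069 to 1185 CPM at 24 h, mostly from collagen genes. Of 15 tested members 3 fell, the mesothelial genes Lrrn4, Upk3b and Krt8, and 0 rose. Lrrn4 read 2.19, 4.23 and 7.19 CPM at 0 h and 0.158, 0.224 and 0.231 CPM at 24 h. The call of Upk3b ended without 0 h replicate 1 (0.063), and that of Krt8 (-2.71 ± 0.75; -3.31 without 0 h replicate 2 and -1.53 without 0 h replicate 3) without 0 h replicate 3 (0.0875) and 24 h replicate 2 (0.0509). Of the mast cell and eosinophil markers 0 of 8 rose and 1 fell (40.0 to 48.5 CPM in sum at 0 h, 26.1 to 28.1 at 24 h). Of the dendritic cell markers 1 of 5 rose and 0 fell (5.84 to 17.3 and 18.1 to 20.9 CPM). The erythroid markers stayed below 1.1 CPM in sum. The part of such cells in the results above was not tested.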

How the data were processed

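The members, lists and key genes were chosen with earlier results of these data known. Per the labels' protocols, a Qiagen kit gave the RNA and a NuGen Ovation kit the libraries. CASAVA 1.8.2, STAR 2.5.2b and the build mm10 are named in the submitters' processing notes. Which tool counted the reads, and with which strand setting, is not given in these sources. The deposited values are raw counts per RefSeq transcript identifier (35745 rows), whole numbers with totals that differ between the authors' libraries. Of each gene the identifier with the highest mean was kept (24562 genes); 117 identifiers had no symbol and stayed in the totals. Genes were tested with edgeR 4.0.16 (R 4.3.3; TMM factors, filterByExpr, robust quasi-likelihood fit of 4 group means over 12 libraries, Benjamini-Hochberg at 0.05). The test was run on simulated counts in which few genes changed, in equal numbers up and down, and none of them was scarce. That run does not check the test where many genes change or where counts are few. Standard errors are the log2 fold change over the root of F. CPM use TMM-scaled totals; bounds use 3 counts over the group, intervals are exact at 95%, and both cover counting error only. Alternatives used DESeq2 1.42.0 and limma 3.58.1. Text names key genes, the 15 largest increases and decreases with no overlap and at least 10 CPM, the 10 largest gains and losses in CPM, up to 5 list members per direction, all members of lists of at most 16 entries, the genes with the smallest p of the diet difference, and genes whose call ends without HFD 0 h replicate 3; other genes were chosen after their values were seen. Of 854 list entries 852 matched a symbol. No 2 libraries within HFD 0 h or within HFD 24 h agreed within sampling noise, and other pairs were not compared. Some genes are not reported here.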

Additional observations from a re-analysis of the deposited data

How the results depend on the processing

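The count of genes that passed in HFD, 3116, lay between 2490 (only HFD libraries fitted; 2558 with the replicate block as well, an alternative chosen after seeing the data) and 3455 (DESeq2) over the alternatives other than the test against 1.5-fold, which by its construction called fewer, 1326, with 787 higher and 539 lower. Upper-quartile factors turned the split from 1605 higher and 1511 lower to 1392 and 1842. Leaving out each HFD library in turn gave 2520 to 2995 genes, 1410 to 1582 higher and 1110 to 1452 lower. With the lane tag as a covariate 2923 passed, 1522 higher and 1401 lower. Within a group the tag differs only at HFD 24 h, where replicate 1 alone carries it. That fit therefore nearly repeats leaving out HFD 24 h replicate 1 (2919 genes) and is no separate check on lane. Of 324 named genes that passed, 226 did so under every alternative and 0 reversed. The test against 1.5-fold is counted among these and alone ended 92 of the calls. Each other alternative ended 0 to 38. The test of the difference between diets gave 9 genes with DESeq2, 5 with sample quality weights, 3 without a filter on low counts, 4 with the replicate block and 0 to 3 on leaving out each library (3 without chow 24 h replicate 3, namely Ccl5, Cfb and Rtp4, and 3 without HFD 0 h replicate 2, namely Ccl5, Ccl9 and Cfb). The labels give the same replicate numbers in the groups, but do not say whether these mark pairs. Same-numbered HFD libraries deviated together with r of 0.055, 0.263 and 0.029, against -0.185 to 0.091 for HFD libraries with different numbers. In chow the same-numbered libraries gave 0.301, 0.091 and 0.346, against -0.307 to 0.109 for different numbers. Whether the numbers mark pairs was not settled, and the main fit did not use them. With the replicate block 3397 genes passed, 1763 higher and 1634 lower. Depth limits HFD 0 h replicate 3 most, where 3 counts equal 1.27 CPM before TMM scaling.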

Other observations

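Several genes that rose lay side by side. Read along each chromosome over the genes tested, 36 runs of at least 4 adjacent genes rose and 10 fell. The longest run that rose held 10 genes of the Schlafen cluster on chromosome 11 (82942341 to 83226584, GRCm38.p6), with a median log2 fold change of 1.71. A run of 8 Ms4a genes on chromosome 19 (11321039 to 11604804) had a median of 3.11, and a run of 8 Trim genes on chromosome 7 (104218795 to 104507853), from Trim6 to Trim30d, had a median of 2.08. All 6 tested genes from Ifit2 to Ifit1 on chromosome 19 (34550550 to 34662981) rose, with a median of 7.13. Among runs that fell, 7 genes from Ttyh2 to Cd300ld on chromosome 11 (114675468 to 114989886) had a median of -2.06. The run of 8 Ugt1a genes shares exons, so it is not 8 separate measurements. Some runs hold close relatives, whose reads the counting may share, and others, such as Chst3, Psap, Cdh23 and Vsir, which fell, hold genes of different families. The part of shared reads was not tested.

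By type of transcript, 36 of 416 long noncoding RNAs rose and 42 fell, beside 1545 and 1441 of 12025 protein-coding genes. Of 7 tested small nucleolar RNAs 5 fell and 0 rose.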
